A study of Mus musculus with 4 samples.

Results

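Chromosome 10 held 250 of the 4638 Zac1 peaks (5.39%) analysed here, and these are all peaks whose deposited chromosome is 10; no read count or fold entered their choice. The study mapped Zac1 in Neuro-2A cells, a line from a mouse neuroblastoma, 16 hours after transfection with the plasmid pRK5-Zac1. It has 2 ChIP libraries, precipitated with an in-house anti-Zac1 antibody, and 2 input libraries of chromatin without antibody. All 4 come from cells that received the plasmid, so binding at the cells' own Zac1 level was not analysed here. The peak table gives 1 ChIP and 1 input read count per peak, with positions on mm9. Spread between replicates was therefore not measurable. Intervals below are exact 95% intervals for counting error only, and no difference between sets of peaks was tested, because peaks are not replicates. The intervals of shares of peaks treat peaks as independent, which neighbours are not. The 250 peaks held 20371 ChIP reads and 1043 input reads.

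Zac1 is the protein of Plagl1, an imprinted gene of mouse chromosome 10 that is expressed mainly from the paternal allele. It is a C2H2 zinc finger transcription factor known for arrest of the cell cycle and apoptosis when overexpressed, and for the control of other imprinted genes. It binds GC-rich DNA, and the palindrome GGGGCCCC is a known form of its element. In ChIP-seq, sheared chromatin bound by the antibody is sequenced, and a binding site appears as forward reads on one side and reverse reads on the other.

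The start region of Plagl1 is shown because the gene lies on the chromosome described and encodes the precipitated factor. The sequence is RefSeq's for GRCm38.p6, 250 bp before to 50 bp after the gene's start, chr10:13090582-13090881 on the plus strand. That build differs from mm9, so these coordinates cannot be set beside the peaks. Capitals mark the only match to GGGGCC, which begins 197 bp before the start.

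Plagl1: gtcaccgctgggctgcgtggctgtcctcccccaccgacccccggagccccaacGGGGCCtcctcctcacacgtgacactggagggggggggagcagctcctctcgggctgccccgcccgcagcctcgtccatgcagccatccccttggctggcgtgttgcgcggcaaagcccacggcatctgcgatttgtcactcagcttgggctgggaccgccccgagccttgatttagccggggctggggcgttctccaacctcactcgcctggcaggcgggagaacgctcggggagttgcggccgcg

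The window was 70.7% G and C, against a median of 52.7% (interquartile range 45.7 to 61.7) over 32851 promoters of the same length. GGGGCC, searched on both strands, was present in 24.97% of those promoters. The full palindrome GGGGCCCC, which contains GGGGCC, was not present in the Plagl1 window and was present in 1.08% of promoters. On chromosome 10, 16 of 1649 promoters (0.970%) held the palindrome and 412 held GGGGCC. These matches describe letters only. Sequence under the peaks was not analysed here.

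The Plagl1 locus itself held no listed peak. The locus was taken as 12.7 to 12.9 Mb of mm9, a position given with the question and not checked against an mm9 annotation. The nearest peak on the proximal side, at 11218658 to 11218718, was 1.48 Mb away and had 60 ChIP and 3 input reads. The nearest on the distal side, at 13702790 to 13703250, was 0.803 Mb away and had 114 ChIP and 6 input reads. No peak midpoint lay in the 2.48 Mb between these flanking peaks, so a moderate shift of the assumed locus would not change the count. ChIP reads exceeded scaled input reads 28.7-fold (9.37 to 143.2) at the proximal peak and 27.3-fold (12.2 to 75.9) at the distal one, close to the pooled value of the chromosome. The authors' numbering lacks 50 ranks in the table analysed here, and whether any of them fell in this stretch is not known.

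Peaks gathered in the middle of the chromosome. In windows of 10 Mb by peak midpoint, 3 peaks lay at 0 to 10 Mb, 6 at 10 to 20 Mb, 7 at 20 to 30 Mb, 3 at 30 to 40 Mb and 10 at 40 to 50 Mb. The count was 13 at 50 to 60 Mb, 36 at 60 to 70 Mb, 92 at 70 to 80 Mb and 40 at 80 to 90 Mb. It was 5 at 90 to 100 Mb, 1 at 100 to 110 Mb, 5 at 110 to 120 Mb and 29 at 120 to 130 Mb. The stretch from 50 to 90 Mb thus held 181 peaks (72.4%), and the window from 70 to 80 Mb alone held 36.8% (30.8 to 43.1). That window was the densest of 13, and its interval treats clustered peaks as independent. Among the 20 chromosomes with peaks, the share in the densest 10 Mb window ranged from 14.2% to 81.1% on the others, and chromosome 10 came 7th from the highest.

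At 1 Mb, the dense window resolved into separate clusters. Between 70 and 80 Mb, 3 of the 1 Mb windows were empty. The window at 74 to 75 Mb held 17 peaks, and the next 3 held 7, 18 and 9, which gives 51 peaks from 74 to 78 Mb. A single peak lay at 78 to 79 Mb. The window at 79 to 80 Mb held 38 peaks and the one at 80 to 81 Mb held 34. The 10 Mb boundary therefore split a cluster of 72 peaks (28.8%) from 79 to 81 Mb, which was delimited after its density had been seen. Windows shifted by 5 Mb placed 112 peaks at 75 to 85 Mb and 23 at 65 to 75 Mb.

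**Figure D1:**
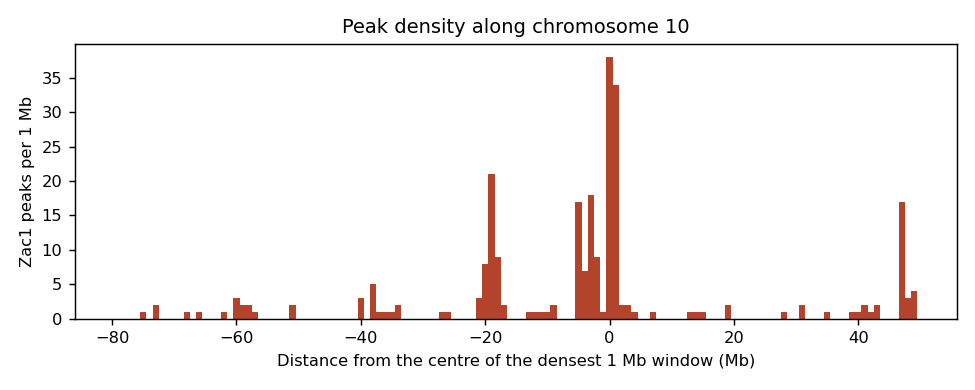
Number of Zac1 peaks in each 1 Mb window of chromosome 10 (vertical axis), placed by its distance in Mb from the centre of the densest window (horizontal axis). The densest window, with 38 peaks, and its neighbour, with 34, stand above separate clusters on either side.

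The remaining dense windows were at 60 to 61 Mb, with 21 peaks, and at 126 to 127 Mb, with 17. The window at 59 to 60 Mb held 8 peaks and that at 61 to 62 Mb held 9, so 38 peaks lay from 59 to 62 Mb. Of the 29 peaks beyond 120 Mb, 17 were in the window at 126 to 127 Mb. Of 129 windows up to the last peak, 75 were empty, 25 held 1 peak and 10 held more than 5. Those 10 windows held 178 of the 250 peaks, and 5 windows were enough for 51.2% of them.

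Long stretches held no listed peak. The widest ran for 10.2 Mb between peak midpoints at 28866878 and 39090685, and the next for 8.94 Mb between 98660811 and 107599858. In all, 6 intervals between neighbouring peaks exceeded 5 Mb and 30 exceeded 1 Mb, whereas the median interval was 44.3 kb. The most isolated peak, at 114752055 to 114752117, was 4016 kb from any other and had 62 ChIP and 4 input reads.

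Joining peaks whose edges lay at most 100 kb apart gave 34 groups with 200 peaks and left 50 peaks single. The largest group had 37 peaks over 602.1 kb, at 79157649 to 79759789. It held 3370 ChIP and 129 input reads, a 37.5-fold excess (31.5 to 45.1). The groups next to it, at 80032680 to 80402188 and 80537059 to 80888128, had 13 and 19 peaks, with folds of 28.4 (21.5 to 38.2) and 33.0 (25.3 to 43.7). Other large groups had 15 peaks at 59954628 to 60392766 (26.0-fold, 20.5 to 33.4) and 14 at 74415626 to 74645254 (19.1-fold, 15.5 to 23.9). Groups of 10 lay at 76495441 to 76715372 (22.6-fold) and at 126533086 to 126777756 (36.3-fold). Pooled folds of these groups thus ran from 19.1 to 37.5.

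Joined at 10 kb, runs were short. The chromosome had 19 pairs, 15 triples and 4 runs of 4 or more peaks. A run of 5 peaks spanned 13.5 kb at 79610896 to 79624408 (624 ChIP and 32 input reads, 28.01-fold, 19.6 to 41.3). Another run of 5 spanned 24.2 kb at 80601380 to 80625570 (342 and 11 reads, 44.7-fold, 24.6 to 90.3). A run of 4 at 79381243 to 79391816 had 231 and 12 reads (27.7-fold), and a run of 4 at 126720706 to 126725716 had 516 and 18 reads (41.2-fold). This run spanned only 5.01 kb and contained the peak with most ChIP reads on the chromosome. Groups at this distance took in 40.4% of peaks on chromosome 10 and 41.5% on the other chromosomes, where the longest run had 17 peaks. Runs of 4 or more made up 4 of 38 groups on chromosome 10 and 118 of 662 elsewhere.

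Read counts on chromosome 10 were near those of the other 4388 peaks. The median peak had 74 ChIP reads on chromosome 10 (interquartile range 62 to 95.75, from 38 to 247) and 75 on the other chromosomes (60 to 97, from 35 to 409). Input reads had a median of 4 in both sets (interquartile range 2 to 6 in each), with a highest value of 15 on chromosome 10 and 57 elsewhere. Input reads per peak averaged 4.17 on chromosome 10 (3.92 to 4.43) and 4.39 elsewhere (4.33 to 4.46), so the intervals overlap. Peaks without any input read made up 6.8% on chromosome 10 (17 peaks, 4.01 to 10.7) and 5.13% elsewhere (225 peaks, 4.49 to 5.82). By median ChIP reads, chromosome 10 shared the 6th place of 20 with 1 other chromosome.

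ChIP reads exceeded scaled input reads 28.1-fold over the chromosome 10 peaks (26.4 to 29.9) and 27.4-fold over all other peaks (27.0 to 27.8). Input was scaled by 0.6961, the constant implied by the authors' folds. The lower interval limit of the fold exceeded 5 in 244 of 250 peaks, where the share over all 4638 peaks was 97.6%. It exceeded 15 in 62 of 250 (24.8%), where the share over all peaks was 23.5%. Both shares on chromosome 10 are near those of the whole list, and all regions were selected for enrichment on these same reads. With at least 1 input read, 233 peaks had a median fold of 29.3 (lowest 9.01, highest 191.1). The 17 peaks without one had 42 to 102 ChIP reads, at least 20.1-fold to 48.8-fold above the 3 input reads that a count of 0 allows. Their exact lower limits, which include the counting error of the ChIP reads, were 15.6 to 39.0.

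**Figure D2:**
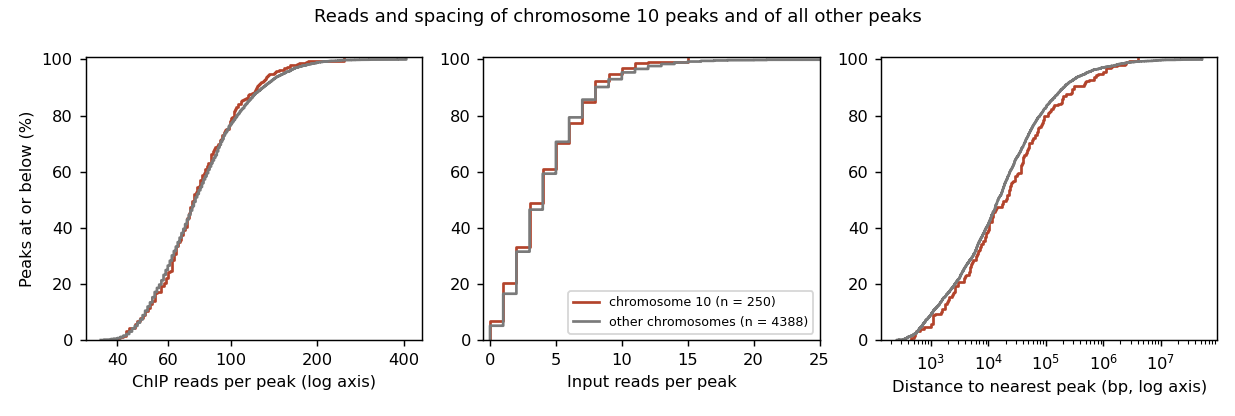
Share of peaks (percent, vertical axes) at or below a given number of ChIP reads, number of input reads (axis ends at 25) and distance in bp to the nearest peak, for chromosome 10 (red, n = 250) and the other chromosomes (grey, n = 4388). The read curves nearly coincide, with medians of 74 ChIP reads on chromosome 10 and 75 elsewhere. The distance curve of chromosome 10 runs to the right of the pooled one (medians 19.97 kb on chromosome 10 and 14.7 kb elsewhere). Taken chromosome by chromosome, the medians of the others had a middle value of 28.7 kb.

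Peaks with more input reads also had more ChIP reads. On chromosome 10, median ChIP reads were 63 in 51 peaks with 0 or 1 input read, 68 in 71 peaks with 2 to 3, 78 in 71 peaks with 4 to 6 and 92 in 57 peaks with 7 or more. Elsewhere these medians were 62, 68, 80 and 100. Across the 250 peaks, ChIP and input reads had a Pearson r of 0.42 and a Spearman rho of 0.43, against an r of 0.50 and a rho of 0.44 over the other peaks. These peaks share the same libraries and the same regions for both counts. All regions were selected for enrichment of ChIP over input on these same reads. Both counts are totals over peaks of 29 to 854 bp. The parts that this selection and peak length play in the relation were not tested.

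Within the chromosome, the window from 70 to 80 Mb had more ChIP reads per peak, with a median of 82 (interquartile range 66.75 to 102.25) against 71 (59 to 89.75) in the other 158 peaks. The weaker strand reached at least 28 reads in its busiest window in 10 of 92 peaks there and in 3 of 158 in the rest. These are 10.9% (5.34 to 19.1) and 1.90% (0.393 to 5.45), where the share over all 4638 peaks was 4.55%. The pooled fold was 28.7 (26.0 to 31.8) at 70 to 80 Mb and 27.6 (25.5 to 29.96) in the rest, so the intervals overlap. Input reads per peak were 4.40 (3.98 to 4.85) at 70 to 80 Mb and 4.04 (3.73 to 4.36) in the rest.

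The clusters seen at 1 Mb had unlike input, and the one from 79 to 81 Mb has 38 of its peaks inside the window from 70 to 80 Mb and 34 beyond it. From 79 to 81 Mb, peaks had 3.36 input reads each (2.95 to 3.81), against 4.50 (4.19 to 4.82) in the other 178 peaks of the chromosome. Median ChIP reads were 74 from 79 to 81 Mb and 73.5 in the other 178. The pooled fold was accordingly 35.1 (30.8 to 40.1) from 79 to 81 Mb and 25.9 (24.2 to 27.9) in the other 178. Both intervals leave out the spread between peaks, and the cluster was delimited after its density had been seen. The difference was not tested. From 74 to 78 Mb, peaks had 5.16 input reads each (4.55 to 5.82), a median of 80 ChIP reads and a fold of 24.1 (21.2 to 27.3).

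Single 1 Mb windows spanned a wider range. At 61 to 62 Mb, 9 peaks had 655 ChIP and 14 input reads, 1.56 input reads per peak (0.850 to 2.61) and a fold of 67.2 (39.8 to 123.6). At 74 to 75 Mb, 17 peaks had 1478 and 107 reads, 6.29 input reads per peak (5.16 to 7.61) and a fold of 19.8 (16.3 to 24.4). The window at 60 to 61 Mb, adjacent to the first, had 4.43 input reads per peak and a fold of 26.6 (21.6 to 33.2). The fold was 38.1 (32.0 to 45.8) at 79 to 80 Mb, 31.6 (26.1 to 38.5) at 80 to 81 Mb, 27.95 (22.5 to 35.2) at 76 to 77 Mb and 31.3 (25.03 to 39.6) at 126 to 127 Mb. The part that input coverage plays in these folds was not tested.

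**Figure D3:**
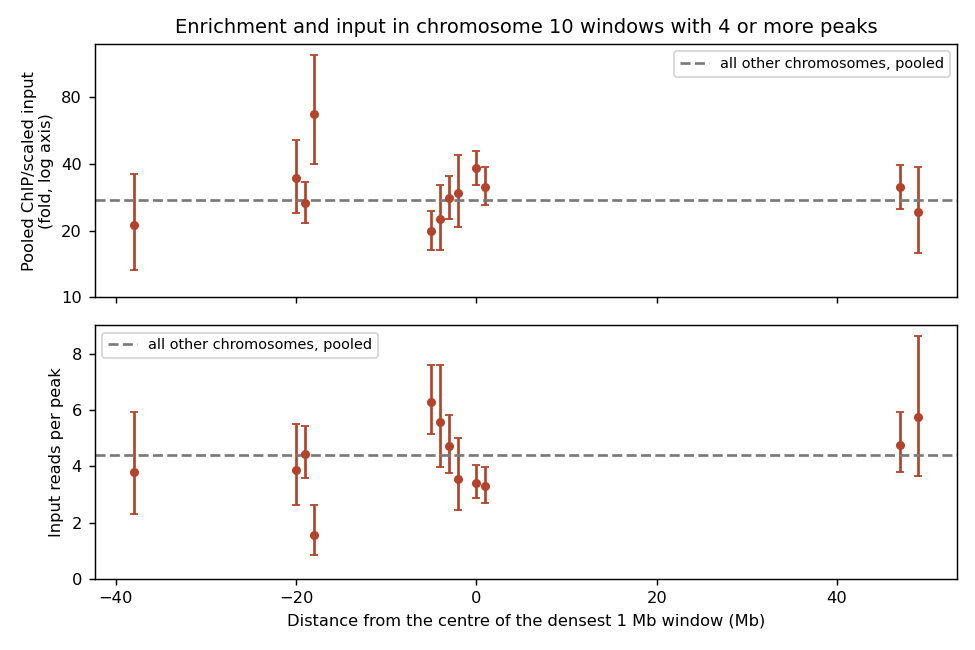
Pooled ChIP over scaled input (upper panel, fold, log axis) and input reads per peak (lower panel) in the 1 Mb windows of chromosome 10 with 4 or more peaks, by distance from the centre of the densest window; bars are exact 95% intervals for counting error and the dashed line is the pooled value of all other chromosomes. The window with the highest fold, 67.2, has the fewest input reads per peak, 1.56, and the one with the lowest fold, 19.8, has the most, 6.29. The input reads of the lower panel are also the denominator of the fold, so the panels are not independent.

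The best ranked peaks lay mostly in the dense window. Of the 10 best ranked on chromosome 10, 7 were at 70 to 80 Mb, 2 at 59 to 62 Mb and 1 at 126 to 127 Mb. The best, at 75968781 to 75968823, had 102 ChIP and 2 input reads and rank 18 in the authors' deposited table, with a log2 fold of 6.02. The peak at 79496596 to 79496977, rank 25, had 126 ChIP and 8 input reads over 382 bp. At 74438229 to 74438258 the counts were 161 and 8, and at 74565733 to 74565787 they were 125 and 8. All 4 had more ChIP reads than the upper quartile of the chromosome (95.75), and all but the second were shorter than its median length of 79 bp.

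Other peaks among these 10 combined a high ratio with very few input reads. The peaks at 79283338 to 79283400 and 79462187 to 79462348 had 133 and 123 ChIP reads with 1 input read each. Their folds of 191.1 (33.7 to 7602) and 176.7 (31.1 to 7035) are thus poorly bounded above. At 61332850 to 61332881 and 59954628 to 59954656, 93 and 102 ChIP reads faced no input read, at least 44.5-fold and 48.8-fold against 3 input reads (exact lower limits 35.5 and 39.0). The 10th, at 79321262 to 79321291, had 65 ChIP and 2 input reads. The rank follows the largest window ratio, so it does not order peaks by their total ChIP reads. That ratio comes from a window that can lack input reads even where the peak has some. For the best ranked peak, a log2 fold of 6.02 is that of 64 ChIP and no input reads, with 1 added to each count. Among windows without input reads, the ratio orders peaks by the window's ChIP reads.

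Of the peaks with extreme values, 3 lay at 126 to 127 Mb. The peak at 126722999 to 126723115 had the highest ChIP count, 247, with 4 input reads (88.7-fold, 34.2 to 328.1). It was a 117 bp peak of rank 143 with 140 forward and 107 reverse ChIP reads. The lowest ChIP count, 38 with 1 input read, was at 80995440 to 80995489. The most input reads, 15, were found in a pair of peaks. One, at 126365252 to 126365542, had 170 ChIP reads (16.3-fold, 9.60 to 29.7), and the other, at 74499715 to 74500270, had 108 (10.3-fold, 6.001 to 19.1). The lowest fold, 9.01 (4.74 to 18.9), was at 20005369 to 20005397, with 69 and 11 reads. The longest peak, 854 bp at 126625217 to 126626070, had 161 and 7 reads.

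In the whole list, chromosome 10 took its share of good ranks. It held 6 peaks with an authors' rank up to 100, 31 up to 500 and 58 up to 1000, which is 2.4%, 12.4% and 23.2% of its peaks, against 2.07%, 10.6% and 21.3% of the other peaks. All 6 with a rank up to 100 were among the 92 peaks at 70 to 80 Mb. None of the other 158 had one (exact upper limit 2.31%), where the share over all peaks was 2.09%. The split depends on the cutoff. The peak at 61332850 to 61332881, rank 103, had the same log2 fold, 5.75, as the rank 92 peak inside the window. A rank up to 1000 was listed for 33.7% of peaks at 70 to 80 Mb and 17.1% in the rest. From 79 to 81 Mb that share was 23.6%, against 23.0% in the other 178 peaks.

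Spacing to the nearest peak had a median of 19.97 kb on chromosome 10 (interquartile range 4.87 to 74.04) and 14.7 kb elsewhere (3.73 to 55.7). The chromosome stood 12th of 20 from the highest median, and the medians of the other chromosomes had a middle value of 28.7 kb. A neighbour within 10 kb was found for 39.2% of peaks on chromosome 10 (33.1 to 45.6) and 41.2% elsewhere (39.8 to 42.7), so the intervals overlap. Within 100 kb the shares were 80% on chromosome 10 (74.5 to 84.8) and 82.7% elsewhere (81.5 to 83.8). At 1 kb they were 4.8% on chromosome 10 (12 peaks, 2.50 to 8.23) and 9.002% elsewhere (395 peaks, 8.17 to 9.89). These intervals treat peaks as independent, which neighbours are not.

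Spacing inside and outside the dense stretches follows from their choice by density and is given as a description. The median nearest distance was 8.56 kb at 70 to 80 Mb and 38.5 kb in the rest, and 58.7% of peaks at 70 to 80 Mb, against 27.8% in the rest, had a neighbour within 10 kb. In the cluster at 79 to 81 Mb the median was 6.67 kb, and 48 of 72 peaks had such a neighbour. At 79 to 80 Mb it was 2.47 kb, against 9.48 kb at 80 to 81 Mb, although the windows held similar numbers of peaks. The closest pair on the chromosome, 456 bp apart by midpoint, lay at 79623897 and 79624353, inside the run of 5.

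Reads were shared evenly between the strands. Forward ChIP reads had a median of 37 on chromosome 10 (interquartile range 30 to 49) and 38 elsewhere (29 to 49). Reverse ChIP reads had a median of 37 on chromosome 10 (interquartile range 31 to 48) and 38 elsewhere (29 to 49). The forward strand carried 50.4% of ChIP reads on chromosome 10 (49.8 to 51.1) and 50.1% elsewhere. Of input reads it carried 51.4% on chromosome 10 (48.3 to 54.5) and 50.2% elsewhere. The reverse summit lay a median of 71.5 bp beyond the forward one on chromosome 10 (interquartile range 34.5 to 100) and 68 bp elsewhere (33 to 103). Median length was 79 bp on chromosome 10 and 83 bp elsewhere.

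The deposited strand balance divides the linear fold of the weaker strand by that of the stronger, so 1 is full balance. Its median was 0.880 on chromosome 10 (interquartile range 0.763 to 0.947) and 0.842 elsewhere (0.726 to 0.929), and the other 19 chromosome medians ran from 0.8 to 0.875. A balance of 0.9 or more was listed for 42.4% of peaks on chromosome 10 (36.2 to 48.8) and 33.4% elsewhere (32.0 to 34.8). It did not follow the dense stretch, with medians of 0.878 at 70 to 80 Mb and 0.884 in the rest. The intervals of the shares with a balance of 0.9 or more do not overlap, but they treat peaks as independent. The interquartile ranges of the balance overlap widely, and the difference between chromosome 10 and the other chromosomes was not tested.

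**Figure D4:**
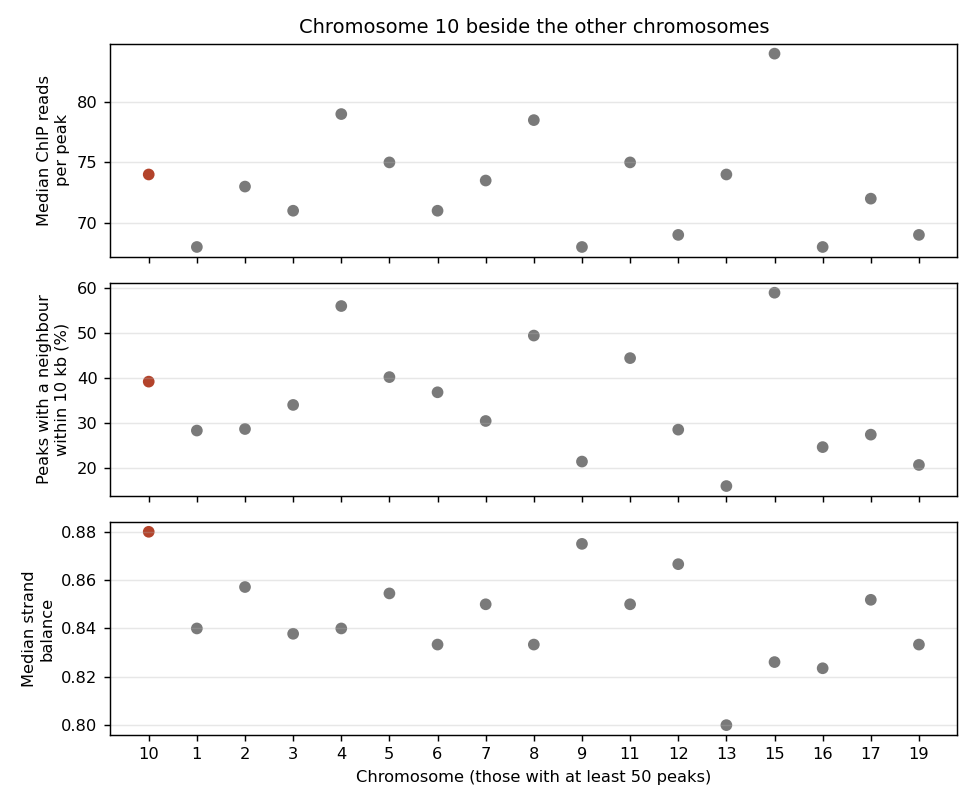
Median ChIP reads per peak, percent of peaks with a neighbour within 10 kb and median strand balance (vertical axes, none starting at 0), for chromosome 10 (red) and the other chromosomes with at least 50 peaks (grey). Chromosome 10 lies within the range of the others for reads (74) and neighbours (39.2%) and just above them for balance (0.880, with 0.875 next).

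Summits in inverted order or level were seen in 9.2% of peaks on chromosome 10 (23 peaks, 5.92 to 13.5) and 12.4% elsewhere (11.5 to 13.5). Lengths of 200 bp or more were listed for 13.2% on chromosome 10 (9.26 to 18.0) and 15.5% elsewhere (14.5 to 16.6). In the weaker strand of every peak on the chromosome, the busiest window held 16 reads or more. It held exactly 16 in 48 peaks (19.2%), against 22.2% elsewhere. A further limit is thus set by the list, since weaker sites on chromosome 10 were not analysed here.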

How the data were processed

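The authors' peak table was analysed as deposited. Its column names are those of the CisGenome peak caller, per the file headers, and mm9 is the build, per the submitters' processing notes. The sources used here give no aligner, filters, thresholds or pooling of the 2 replicates. Per the file headers, the values are whole-number ChIP and input read counts per peak, a log2 largest window fold, a false discovery rate (a p-value-like quantity), a strand balance (a fraction) and a rank (a score) set by the authors. The headers write pos and neg, which were read here as ChIP and input, a reading under which the deposited folds could be matched. The deposited fold was matched, to within 5e-06 in log2, by any whole counts up to those of the busiest windows, with a pseudocount of 1. With input scaled by 0.6961 this held in 4638 of 4638 peaks, and without scaling in 3900. The constant was fitted to the same folds, so the match is not an independent check. The counts listed for a peak need not be those that match.

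Peaks were placed by midpoint. Folds are ChIP reads over scaled input reads with exact (Clopper-Pearson) 95% intervals. Input reads per peak have exact Poisson intervals. Reads may include PCR duplicates, since the sources used here do not say whether these were removed. Intervals cover counting error only. The depth of each library is unknown, and only reads within peaks are given. The interval and scaling steps were tested on simulated data. Computation used Python 3.11.15, pandas 2.3.3 and SciPy 1.17.1. Named regions are the 10 best ranked peaks, the 5 densest 1 Mb windows with ties, runs of 4 or more peaks joined at 10 kb, extremes and the flanks of the Plagl1 locus. The other stretches, groups joined at 100 kb, and the most isolated peak and that with fewest ChIP reads were named after their values were seen. The members and lists were chosen with earlier results of these data known. No mm9 genome or annotation was used, so peaks were not assigned to genes.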

Additional observations from a re-analysis of the deposited data

How the results depend on the processing

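Counts fell with stricter lists, while shares moved less. Chromosome 10 held 124 peaks among the 2319 best ranked peaks (5.35% of it), 58 of the 1000 best ranked (5.8%), 95 with at least 20 reads per strand (5.55%), 240 after merging within 1 kb and 187 after merging within 10 kb. At 70 to 80 Mb the counts were 53, 31, 47, 87 and 57, or 42.7%, 53.4%, 49.5%, 36.3% and 30.5% of the chromosome's peaks. Start or end positions gave 92. From 79 to 81 Mb the shares under the same 5 lists were 29.8%, 29.3%, 28.4%, 27.9% and 21.4%, against 28.8% over all listed peaks. Windows shifted by 5 Mb, chosen after seeing the data, gave 112 at 75 to 85 Mb and 23 at 65 to 75 Mb.

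The pooled fold was 19.5 on chromosome 10 and 19.1 elsewhere without scaling, 21.8 and 21.2 from the busiest windows, 36.6 and 36.0 among the 2319 best ranked peaks and 41.6 and 38.8 among the 1000 best. At 70 to 80 Mb and in the rest of the chromosome it was 20.01 and 19.2, 23.2 and 20.9, 36.5 and 36.8, and 41.8 and 41.3. The rank uses the fold, so the rise with rank follows from the ranking. Among the 2319 best ranked peaks, median forward ChIP reads were 44 on chromosome 10 and 42 elsewhere, and median reverse ChIP reads 41 and 43. A neighbour was found for 4.8% of chromosome 10 peaks within 1 kb, 80% within 100 kb and 31.5% within 10 kb among the 2319 best ranked peaks, where it was 30.6% elsewhere. Median strand balance, an alternative added after seeing the data, was 0.885 on chromosome 10 and 0.852 elsewhere among the 2319 best ranked peaks, and 0.880 and 0.844 with at least 20 reads per strand. The Plagl1 locus held 1 peak with 1 Mb added on each side. Of 45 alternative values, 12 stayed within the counting interval or within 1.5 times the count. No paired analysis was possible because each peak carries a single ChIP and a single input value, and leaving out a replicate was not run for the same reason.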
